A study of Mus musculus with 8 samples.

Results

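The genes described are 8 complement components and receptors of mouse macrophages: C1qa, C1qb, C1qc, C3, Cfb, Cfp, C3ar1 and C5ar1. They were chosen by symbol, and all 8 were found among the 24421 gene symbols counted in each library. RNA was sequenced from primary macrophages of mice on a normal diet, with 3 wild-type libraries (WT), 3 libraries of the genotype written LysM-DKO and 2 libraries of the genotype written ABCG1KO. The design text of the study speaks of an epsin double knockout, and LysM-DKO was taken to be that group. The name LysM points to Cre recombinase driven from the lysozyme gene Lyz2, which acts in macrophages and other myeloid cells. Whether epsins are kept in other cells is not given in the sources used here. Epsins help clathrin to take up membrane cargo, and ABCG1 exports cholesterol to lipoproteins. Age, sex, the tissue of origin, and whether libraries came from separate animals are not given in the sources used here, so p-values measure the spread between these libraries, which may be technical.

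Complement is a cascade of plasma proteins that tags microbes, dying cells and debris. C1q, built from the A, B and C chains encoded by C1qa, C1qb and C1qc, opens the classical pathway when it binds its targets. Factor B (Cfb) and C3 form the C3 convertase of the alternative pathway, and properdin (Cfp) stabilises it. Cleavage releases the small peptides C3a and C5a, which act on the receptors C3AR1 and C5AR1. Most complement proteins of plasma come from the liver, whereas macrophages and other myeloid cells are known as main sources of C1q and properdin.

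The libraries held 29567615 to 41888516 counts in genes. Levels are given as CPM, counts scaled to a fixed library total, with TMM factors, which correct for differences in composition, and differences are log2 fold changes with standard errors (SE) from a quasi-likelihood fit of all 8 libraries in edgeR. Calls rest on p-values adjusted by the Benjamini-Hochberg procedure (BH) over all 13821 genes tested, with a threshold of 0.05. Epn1 was at 229.6, 203 and 191 CPM in WT and at 169, 183 and 154 CPM in LysM-DKO. Its partner Epn2 was at 4.97 to 8.86 CPM in WT and 5.67 to 13.2 CPM in LysM-DKO. Lyz2, the locus named in the label, was at 13002 to 15707 CPM in WT and at 6176, 8104 and 6265 CPM in the libraries labelled LysM-DKO, with no overlap and no call (-1.09, BH-adjusted p 0.173 in edgeR). The deleted part of the epsin genes is not given in the sources used here, so the epsin counts do not check the label. Whether the Lyz2 difference comes from the label's Cre was not tested. Every LysM-DKO direction rests on the label. Abcg1 was at 345 to 405 CPM in WT and at 60.4 and 73.4 CPM in ABCG1KO. Both ABCG1KO libraries and LysM-DKO 1 lacked Xist counts beyond 2 and held the Y-linked gene Ddx3y at 81.6 to 94.7 CPM, while the WT libraries, LysM-DKO 2 and LysM-DKO 3 had Xist at 79.0 to 265 CPM. Sex and genotype therefore cannot be told apart in ABCG1KO against WT. The LysM-DKO group holds both sexes, so sex is also unbalanced in its comparisons with WT and with ABCG1KO. By the same genes, LysM-DKO 1 and LysM-DKO 2 or 3 did not come from the same animal. Reads outside annotated genes made up 10.2% and 13.8% of counted reads in ABCG1KO and 4.26% to 6.07% in the other libraries, and reads placed at several loci made up 6.74% and 6.93% against 2.65% to 3.01%. The notes of the submitters name both STAR and TopHat as aligners with no role, so whether all groups were aligned alike is not given in the sources used here, and such a difference cannot be told apart from the ABCG1KO genotype.

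The macrophage label was checked on 12 markers. Their summed level was 32291 to 34771 CPM in WT, 23157 to 25717 CPM in LysM-DKO and 26431 to 28610 CPM in ABCG1KO. The sum includes Lyz2, at 6176 to 8104 CPM in LysM-DKO and 13002 to 15707 CPM in WT. In LysM-DKO against WT 0 of the 12 markers were called, and their median log2 fold change was -0.09, with Adgre1 (F4/80) at -0.12, Csf1r (the CSF1 receptor) at -0.05 and Cd68 at -0.02. The ABCG1KO libraries had 3 called higher against WT, Adgre1 (1.21), Csf1r (1.19) and Cd14 (1.87), and 2 lower, Cd68 (-1.06) and Lgals3 (-2.04), with a median of -0.20. In bulk RNA, fewer cells of a type and less RNA per cell cannot be told apart.

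In the macrophages labelled WT, the 8 genes took 3424 to 5413 CPM together. Per kilobase of exonic length, a scale that allows levels of different genes to be compared, C1qb was highest in WT (mean 1213 CPM per kb), followed by C1qc (419), C1qa (367), C3ar1 (244), Cfp (207), C5ar1 (132), C3 (38.8) and Cfb (1.35). Neighbours in this order overlapped between libraries from C1qc down to C5ar1: C1qc was at 325 to 490.3 and C1qa at 259 to 494 CPM per kb. The lowest C1qb library (931 CPM per kb) was above the highest of any other gene of the group. C3 (11.7 to 62.7 CPM per kb) was below the lowest C5ar1 library (66.3 CPM per kb) and above the highest Cfb library (2.36 CPM per kb). The exonic length of C1qc is 1931 bases in the annotation and its longest transcript has 1203 bases, so its place on this scale depends on the transcript used.

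**Figure D1:**
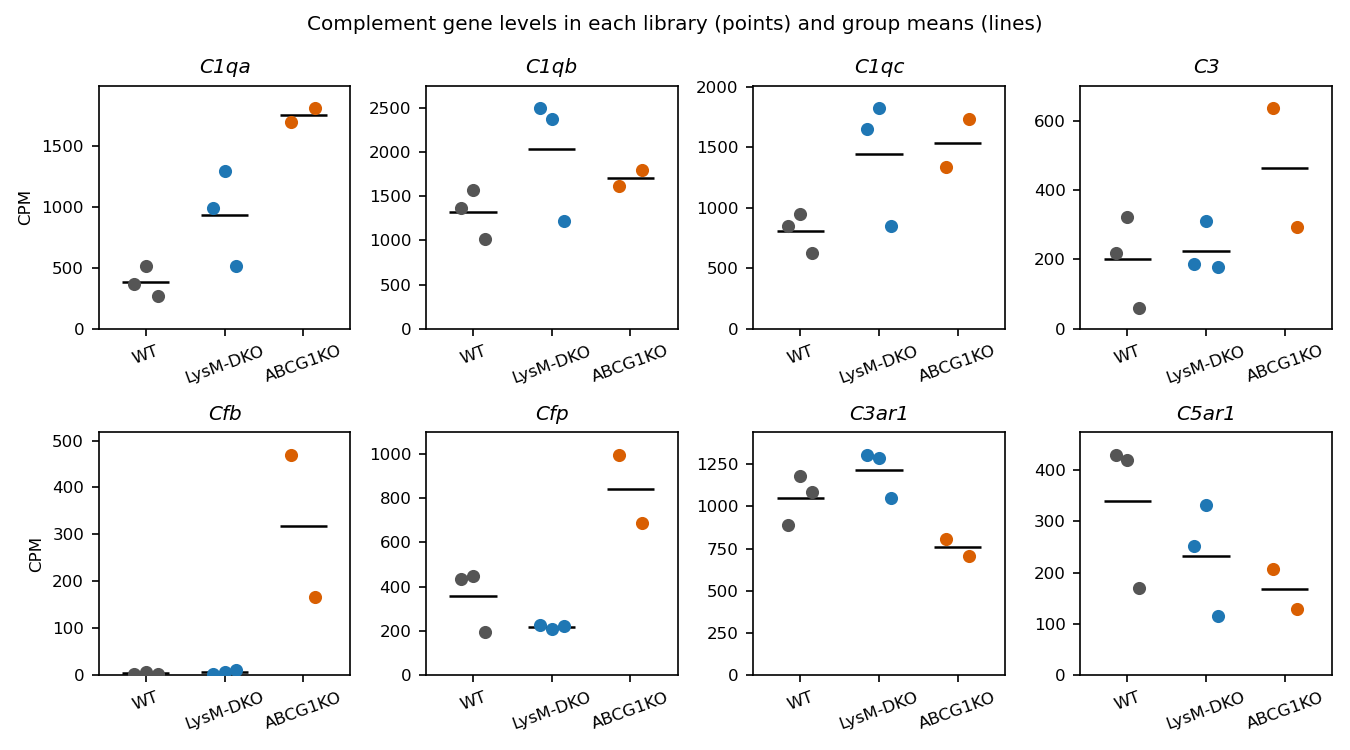
Level of each of the 8 complement genes in CPM (vertical axis, linear, from 0) by group (horizontal axis). Each point is a library and each line a group mean. C1qa is ordered WT, LysM-DKO, ABCG1KO without overlap, and Cfb is near 0 in all libraries but the 2 of ABCG1KO.

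C1q is described first. The 3 genes lie side by side on the minus strand of chromosome 4 in GRCm38 (mm10): C1qb at chr4:136880129-136886187, C1qc at chr4:136889804-136893065 and C1qa at chr4:136895917-136898803, with 3616 bases between C1qb and C1qc and 2851 between C1qc and C1qa. Each has 3 exons in the annotation, none overlaps another gene, and 0% of their 50-base words occur in transcripts of other genes. RefSeq promoter windows, 250 bases before to 50 bases after the start, were found for 6 of the 8 genes (C1qb, C1qc, C3, C3ar1, C5ar1 and Cfp, build GRCm38.p6). Those of C1qb (chr4:136886151-136886450, minus strand) and C1qc (chr4:136892865-136893164, minus strand) are shown because the levels of both transcripts ran side by side over the WT and LysM-DKO libraries (r 0.98, 6 libraries, a description). They are written 5′ to 3′, with capitals for the core recognised by PU.1, an ETS factor of myeloid cells, spelled GAGGAA and searched on both strands.
C1qb: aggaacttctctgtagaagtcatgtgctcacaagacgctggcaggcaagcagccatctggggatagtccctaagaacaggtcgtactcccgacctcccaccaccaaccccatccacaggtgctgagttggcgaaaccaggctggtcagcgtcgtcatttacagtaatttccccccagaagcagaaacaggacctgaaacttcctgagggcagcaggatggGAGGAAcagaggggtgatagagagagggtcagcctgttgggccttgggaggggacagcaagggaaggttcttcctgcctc
C1qc: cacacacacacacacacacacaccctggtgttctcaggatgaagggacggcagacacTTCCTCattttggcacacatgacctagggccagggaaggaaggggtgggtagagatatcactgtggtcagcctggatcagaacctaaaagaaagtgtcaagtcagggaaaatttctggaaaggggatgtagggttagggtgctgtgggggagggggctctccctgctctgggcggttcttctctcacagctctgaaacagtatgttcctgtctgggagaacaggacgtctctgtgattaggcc
C1qb holds the core once, with its first base 30 bases before the start (position -30), and C1qc holds it once at -193 as the reverse complement. Positions count from the RefSeq start. For C1qc this start lies inside the gene span given above, so the position of its match depends on the start used. Of 32851 promoter windows of the same length, 28.3% hold it, so a match is common. The windows of C3, C3ar1 and C5ar1, not shown, held no PU.1 core. In all, 6 motifs were searched. C3 held the C/EBP motif TTGCNNAA at -45 (10.8% of all windows hold it). C3ar1 held the AP-1 motif TGANTCA at -22 (7.81%).

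C1qa was at 364, 514 and 269 CPM in WT, at 987, 1296 and 515 CPM in the LysM-DKO group and at 1691 and 1808 CPM in ABCG1KO. The means were 382 ± 123 (SD, n = 3), 933 ± 393 (SD, n = 3) and 1749.7 ± 82.9 CPM (SD, n = 2). The 3 groups did not overlap, although LysM-DKO 3 (515 CPM) was next to WT 2 (514 CPM). In ABCG1KO against WT the rise was 4.58-fold, a log2 fold change of 2.20 (SE 0.386, BH-adjusted p 0.00870 in edgeR). In LysM-DKO against WT the log2 fold change was 1.29 (SE 0.352, BH-adjusted p 0.342 in edgeR), which was not past the threshold, while DESeq2 gave 1.26 with an adjusted p of 0.0153. In LysM-DKO against WT, groups without overlap were found for 21.0% of all genes, 11.0% higher and 9.98% lower. The male library LysM-DKO 1 (987 CPM) lay between LysM-DKO 2 and LysM-DKO 3, as it did for C1qc, C3 and C5ar1. For C1qb (2501 CPM), C3ar1 (1307 CPM) and Cfp (228 CPM) it was the highest of its group, and for Cfb (1.31 CPM) the lowest. The part of sex was not tested for any of these genes.

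C1qb was at 1369, 1576 and 1013 CPM in WT, at 2501, 2382 and 1217 CPM in the LysM-DKO group and at 1621 and 1800.1 CPM in ABCG1KO. LysM-DKO 1 and 2 were above every WT library, and LysM-DKO 3 fell inside the WT range. Its log2 fold changes were 0.62 (SE 0.290, BH-adjusted p 0.446 in edgeR) in LysM-DKO and 0.37 (SE 0.321, adjusted p 0.465) in ABCG1KO against WT, and neither was past the threshold. C1qc was at 851, 947 and 627 CPM in WT, at 1655, 1825 and 853 CPM in the LysM-DKO group and at 1340.5 and 1732 CPM in ABCG1KO. The order of the libraries matched that of C1qb within WT, whereas LysM-DKO 2 was the highest for C1qc. The log2 fold change of C1qc was 0.84 (SE 0.299, BH-adjusted p 0.369 in edgeR) in LysM-DKO and 0.93 (SE 0.328, adjusted p 0.0929) in ABCG1KO against WT. The ABCG1KO value passed the threshold with DESeq2 (0.93), with libraries scaled by size only (1.17) and after correction for GC content and length (1.27).

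As a description, the shares of C1qa and C1qb among the 3 chains of C1q differed between the libraries of the groups. C1qa took 14.1%, 16.9% and 14.1% of the summed C1q counts in WT, 19.2%, 23.5% and 19.9% in LysM-DKO and 36.4% and 33.9% in ABCG1KO. C1qb had the opposite order, with 51.9% to 53.1% in WT, 43.3% to 48.6% in LysM-DKO and 33.7% and 34.8% in ABCG1KO, and C1qc stayed between 28.8% and 33.2% in all 8 libraries. The ratio of C1qa to C1qb counts was 0.266, 0.326 and 0.265 in WT, 0.395, 0.544 and 0.423 in LysM-DKO and 1.04 and 1.00 in ABCG1KO. The groups did not overlap in this ratio, which needs no scaling between libraries. On the log2 scale it was higher by 0.66 in LysM-DKO and by 1.85 in ABCG1KO than in WT. The exact two-sided permutation p was 0.1 in each, the smallest that these group sizes allow (0.1 after adjustment over 3 comparisons). Such a test could not pass the threshold, so no conclusion is drawn from it. How often the ratio of other gene pairs separates the groups was not tested. The longest transcripts of C1qa and C1qb have 1040 and 1088 bases and a GC content of 59.5% and 57.4%. After correction for GC content and length, the log2 fold changes in ABCG1KO against WT were 2.59 for C1qa and 0.79 for C1qb. Reads outside genes and at several loci were more frequent in ABCG1KO than in the other libraries, and their part in the ratio was not tested.

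**Figure D2:**
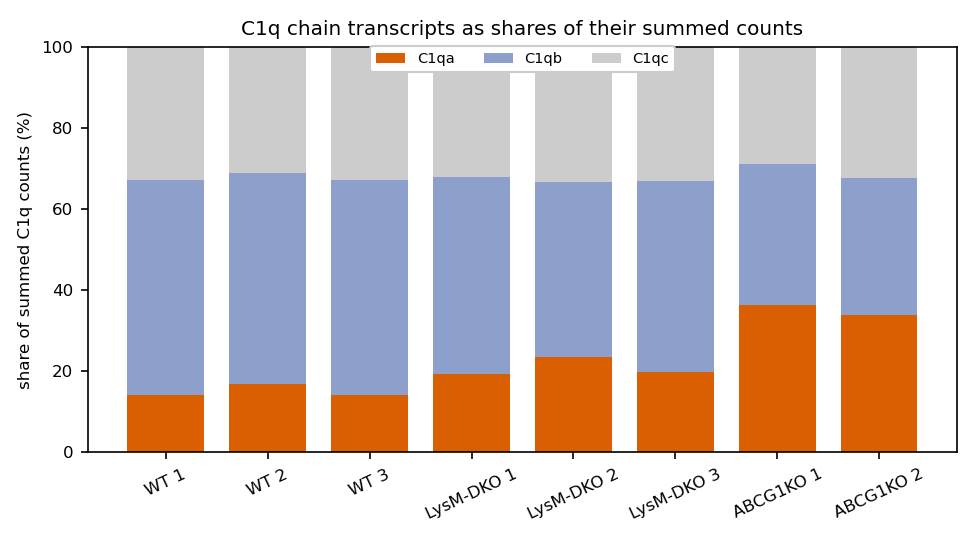
Share of C1qa, C1qb and C1qc in their summed counts (vertical axis, percent) in each library (horizontal axis, 1 stacked bar per library). The C1qa share is 14.1% to 16.9% in WT, 19.2% to 23.5% in LysM-DKO and 33.9% to 36.4% in ABCG1KO.

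Summed over the 3 chains, C1q was at 2583, 3037 and 1909 CPM in WT, at 5143, 5503 and 2585 CPM in the LysM-DKO group and at 4652 and 5341 CPM in ABCG1KO. LysM-DKO 3 thus had the C1q sum of a WT library, while the other two LysM-DKO libraries were at the level of ABCG1KO. Of the flanking genes, Ephb2, an ephrin receptor gene next to C1qb, was at 0.345 to 3.39 CPM in all libraries and was not called in any comparison, and Epha8, next to C1qa, had at most 1 count in any library.

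C3 and the proteins of its convertase came next. C3, at chr17:57203970-57228136 on the minus strand, was at 217, 322 and 60.2 CPM in WT, at 186, 310.5 and 177 CPM in the LysM-DKO group and at 637 and 293 CPM in ABCG1KO. The spread within groups was as wide as the distance between them: WT 3 was the lowest library, and ABCG1KO 2 lay below WT 2. The log2 fold change was 0.17 (SE 0.575, BH-adjusted p 0.927 in edgeR) in LysM-DKO and 1.22 (SE 0.634, adjusted p 0.233) in ABCG1KO against WT, neither past the threshold. Leaving out WT 3 turned the LysM-DKO value to -0.26, leaving out LysM-DKO 2 turned it to -0.15, and the ABCG1KO value was 0.54 without ABCG1KO 1 and 1.73 without WT 2.

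Cfb rose most. It was at 2.7, 6.65 and 2.12 CPM in WT (92, 241 and 82 counts), at 1.31, 6.04 and 11.1 CPM in LysM-DKO (54, 248 and 443 counts) and at 470.2 and 166 CPM in ABCG1KO (14997 and 7035 counts). The means were 3.82 ± 2.47 (SD, n = 3), 6.14 ± 4.88 (SD, n = 3) and 318 ± 215 CPM (SD, n = 2). Its log2 fold change in ABCG1KO against WT was 6.38 (SE 0.950, BH-adjusted p 0.00543 in edgeR), or 83.1-fold, and both ABCG1KO libraries were far above the other 6. The log2 value was 5.43 without ABCG1KO 1, 6.94 without ABCG1KO 2 and 7.04 without WT 2, and it stayed called in each. Between WT and LysM-DKO the libraries overlapped, at a log2 fold change of 0.68 (SE 0.773, BH-adjusted p 0.743 in edgeR) that was -0.05 without LysM-DKO 3. Cfb lies at chr17:34856374-34862518 on the minus strand, 85 bases from C2, the classical pathway homologue of Cfb, and 1 base from Nelfe on the other strand. The annotation also holds Gm20547, a transcript unit on the same strand that overlaps 2246 exonic bases of Cfb and was not among the counted symbols. Cfb shares 73% of its 50-base words with Gm20547. Reads of both could therefore not be separated, and the level of Cfb is uncertain. Neither neighbour was called in any comparison: C2 was at 1.70, 5.30 and 1.91 CPM in WT and at 2.38 and 2.24 CPM in ABCG1KO, and Nelfe was at 32.3 to 43.0 CPM in all libraries. The ratio of Cfb to C2 counts was 1.11 to 1.59 in WT, 1.59 to 12.0 in LysM-DKO and 197 and 74.1 in ABCG1KO. The annotation holds no gene on the other strand that overlaps Cfb. The strand setting of the counting is not given in the sources used here, so reads of unannotated antisense transcripts could not be separated from those of Cfb.

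Cfp, the only one of the 8 genes on the X chromosome (chrX:20925454-20931555, minus strand), was at 435, 448 and 195 CPM in WT, at 228, 209 and 220.1 CPM in the LysM-DKO group and at 996 and 688 CPM in ABCG1KO. The means were 359 ± 142 (SD, n = 3), 219 ± 9.70 (SD, n = 3) and 842 ± 218 CPM (SD, n = 2). Both ABCG1KO libraries were above all others, the LysM-DKO libraries were close together, and WT 3 was below each of them. In ABCG1KO against WT it rose 2.34-fold, a log2 fold change of 1.23 (SE 0.333, BH-adjusted p 0.0414 in edgeR), and the call was lost when WT 1 (1.39), WT 2 (1.41), ABCG1KO 1 (0.93) or ABCG1KO 2 (1.46) was left out and in the fit of both groups alone (1.23). In LysM-DKO against WT the log2 fold change was -0.71 (SE 0.304, BH-adjusted p 0.426 in edgeR). The male library LysM-DKO 1 (228 CPM) differed from the female LysM-DKO 2 and 3 by less than 20 CPM, and the part of sex was not tested. The promoter of Cfp (RefSeq, GRCm38.p6, chrX:20931506-20931805, minus strand) is shown because Cfp was called and its window holds the same PU.1 core, in capitals, at 2 places.
Cfp: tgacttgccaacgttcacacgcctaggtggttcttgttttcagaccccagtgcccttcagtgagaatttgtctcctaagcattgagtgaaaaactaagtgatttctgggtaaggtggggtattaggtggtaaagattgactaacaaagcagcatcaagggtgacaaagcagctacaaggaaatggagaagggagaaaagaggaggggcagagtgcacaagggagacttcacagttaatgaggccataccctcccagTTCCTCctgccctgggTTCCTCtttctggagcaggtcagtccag
Both matches are the reverse complement of GAGGAA, with their first bases at positions 7 and 23 after the start.

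Both receptors had their lowest group mean in ABCG1KO, without a call. C3ar1, at chr6:122847138-122856161 on the minus strand, was at 889, 1180.3 and 1086 CPM in WT, at 1307, 1289 and 1051 CPM in the LysM-DKO group and at 808 and 705 CPM in ABCG1KO. Both ABCG1KO libraries were below every other library, and WT and LysM-DKO overlapped. The log2 fold change was 0.21 (SE 0.170, BH-adjusted p 0.628 in edgeR) in LysM-DKO and -0.48 (SE 0.192, adjusted p 0.132) in ABCG1KO against WT, and DESeq2 gave -0.47 with an adjusted p of 0.0465 for the latter. C5ar1, at chr7:16246743-16259540 on the minus strand, was at 430.1, 419 and 170.5 CPM in WT, at 251, 331 and 116 CPM in the LysM-DKO group and at 207 and 129.6 CPM in ABCG1KO. Library 3 was the lowest of its group in both WT and LysM-DKO, and all 3 groups overlapped. Its log2 fold changes were -0.55 (SE 0.460, BH-adjusted p 0.643 in edgeR) in LysM-DKO and -1.01 (SE 0.530, adjusted p 0.234) in ABCG1KO against WT. C5ar2, the second C5a receptor, lies 2588 bases from C5ar1 and was at 11.2 to 20.9 CPM in WT, 0.775 to 12.0 CPM in LysM-DKO and 3.35 and 2.99 CPM in ABCG1KO, with no call in any comparison.

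Of the 8 genes, 0 were called in LysM-DKO against WT by edgeR, where 0.0362% of all genes were called (0.0217% higher, 0.0145% lower) and 1611 genes had an unadjusted p under 0.05. Among the 8, the unadjusted edgeR p was under 0.05 for C1qa (0.00601), C1qc (0.0224) and Cfp (0.0455), and DESeq2 called 1, C1qa. In ABCG1KO against WT, 3 of the 8 were called, C1qa, Cfb and Cfp, all higher, where 16.0% of all genes were called, 7.21% higher and 8.83% lower. The median log2 fold change of the 8 genes was 0.42 in LysM-DKO and 1.07 in ABCG1KO against WT, beside 0.02 and 0.01 over all genes tested. Both comparisons share the WT libraries. C1qa, C1qb, C1qc, Cfb and Cfp were higher and C3ar1 lower in both ABCG1KO libraries than in every WT library, where 48.2% of all genes had groups without overlap, 23.9% higher and 24.2% lower. Without TMM scaling the median of all genes in ABCG1KO against WT moved to 0.25, and none of the 8 genes changed sign. The count of 3 was 2 when WT 1, WT 2, ABCG1KO 1 or ABCG1KO 2 was left out, the lost call being Cfp each time.

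Set directly against ABCG1KO, the LysM-DKO libraries had 2 of the 8 genes called, both lower, where 7.76% of all genes were called higher and 5.64% lower. Cfb differed by -5.69 on the log2 scale (SE 0.919, BH-adjusted p 0.00868 in edgeR) and Cfp by -1.94 (SE 0.335, adjusted p 0.00938). Both calls were lost without ABCG1KO 1, at -4.77 for Cfb and -1.66 for Cfp. C1qa was lower in every LysM-DKO library than in ABCG1KO, at a log2 fold change of -0.91 (SE 0.382, BH-adjusted p 0.149 in edgeR), and C3ar1 was higher in each, with 0.68 (SE 0.194, adjusted p 0.0519), a value that passed the threshold with DESeq2 (0.66) and after correction for GC content and length (0.60). Groups without overlap were found for 48.2% of all genes in this comparison. C1qc (-0.09, SE 0.332) and C1qb (0.25, SE 0.325) lay within their errors of 0.

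**Figure D3:**
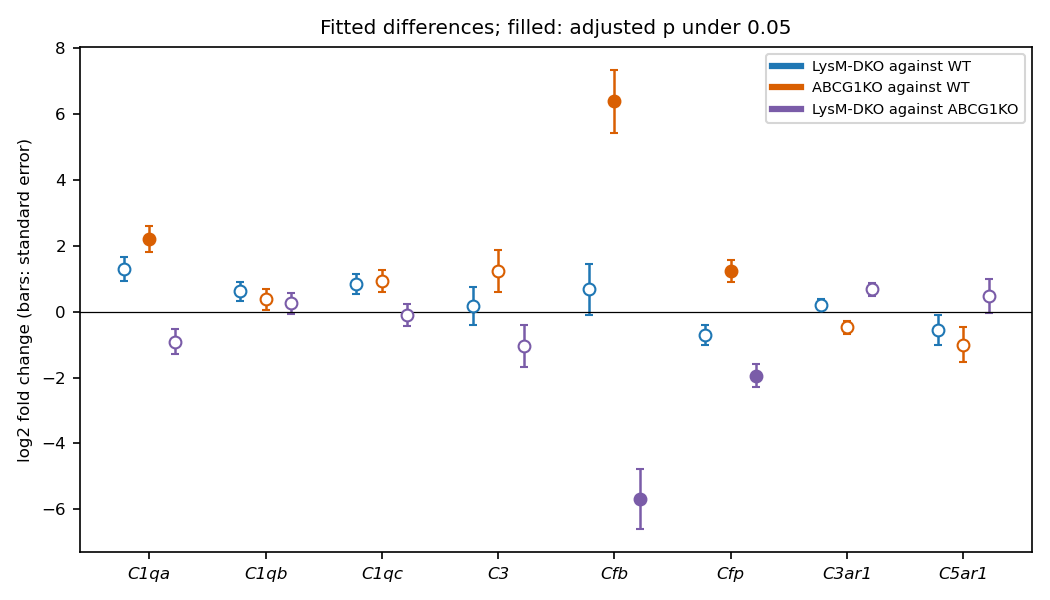
Log2 fold change with its standard error (vertical axis) for the 8 complement genes (horizontal axis) in the 3 comparisons. Filled points have an adjusted p under 0.05: C1qa, Cfb and Cfp in ABCG1KO against WT, and Cfb and Cfp in LysM-DKO against ABCG1KO.

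A wider list of 54 other complement genes was read from the same fit. Of these, 31 were tested and 8 had no count in any library. The components of the terminal pathway were nearly absent: C8g was at 0.873 to 2.02 CPM, C6 and C9 at 0.366 CPM or less, and Hc (C5), C7, C8a and C8b had no counts. Cfd, the protease that cleaves factor B, had at most 1 count in any library, and the lectin pathway genes Mbl1, Mbl2, Fcnb and Colec10 had none.

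No gene of the wider list was called in LysM-DKO against WT by edgeR, while DESeq2, read for the 13 genes of the list named by rule, called Itgax (-1.47, adjusted p 0.0258) and Itgb2 (-0.84, adjusted p 0.0233), both subunits of receptors for the C3 fragment iC3b. Of the 31 tested genes, 1 was called higher and 7 lower in ABCG1KO against WT, beside 7.21% and 8.83% of all genes. Leaving out C1rb, C1s2 and Cd55b, which were at 3 counts or fewer in each library of a group, the median log2 fold change of the other 28 genes was -0.39, beside 0.01 over all genes.

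Among initiators, Fcna, which encodes a ficolin of macrophages, was at 20.5, 35.1 and 7.63 CPM in WT, at 8.84, 26.9 and 5.77 CPM in the LysM-DKO group and at 475 and 179 CPM in ABCG1KO. It rose by 3.95 in log2 units in ABCG1KO (SE 0.835, BH-adjusted p 0.0198 in edgeR), with no overlap, and the call was lost without WT 1 (3.94) or ABCG1KO 1 (3.08). C1s1, which encodes the protease C1s of the C1 complex, was at 35.1, 42.1 and 9.76 CPM in WT and at 5.02 and 3.77 CPM in ABCG1KO. Its change was -2.72 (SE 0.693, BH-adjusted p 0.0363 in edgeR), lost without WT 1 (-2.56), WT 2 (-2.37) or either ABCG1KO library (-2.95 and -2.54). C1s1 shares 35.1% of its 50-base words with other transcripts, mostly of its copy C1s2, so its level is uncertain. C1rb and C1s2 share 60.5% and 26.9% and had at most 2 counts in ABCG1KO libraries against 26 to 74 in WT. C4b, which encodes C4, was at 54.2, 121 and 12.0 CPM in WT, at 5.81, 199 and 24.2 CPM in the LysM-DKO group and at 609 and 439 CPM in ABCG1KO, and its rise of 3.07 (SE 1.35) in ABCG1KO was not past the threshold (BH-adjusted p 0.166 in edgeR). C4b shares 34.6% of its words with C4a.

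Among regulators, Serping1, which encodes the C1 inhibitor, was at 10.6, 14.9 and 6.16 CPM in WT, at 19.1, 26.5 and 11.3 CPM in the LysM-DKO group and at 1.88 and 1.51 CPM in ABCG1KO. It fell by 2.63 on the log2 scale in ABCG1KO against WT (SE 0.487, BH-adjusted p 0.0107 in edgeR), a call lost without ABCG1KO 1 (-2.81) or ABCG1KO 2 (-2.49). Cd59a, a membrane inhibitor of the terminal complex, was at 9.41, 14.4 and 11.2 CPM in WT, at 5.33, 6.09 and 7.52 CPM in the LysM-DKO group and at 3.98 and 2.66 CPM in ABCG1KO. The groups were ordered without overlap, and Cd59a fell by 1.81 in ABCG1KO (SE 0.321, adjusted p 0.00886) and was at -0.89 in LysM-DKO (SE 0.269, adjusted p 0.354, edgeR with Benjamini-Hochberg adjustment). Cfhr2 fell by 3.24 in ABCG1KO (SE 0.729, BH-adjusted p 0.0217 in edgeR) from 1.14 to 2.82 CPM in WT. It shares 29.2% of its words with other transcripts, and its call was lost without WT 1 (-3.26), WT 2 (-2.89), ABCG1KO 1 (-3.36) or ABCG1KO 2 (-3.14). Cr1l, which encodes the rodent regulator Crry, was at 64.4 to 105 CPM in all libraries.

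Among receptors, Itgax, the alpha chain of complement receptor 4, was at 1179, 2039.8 and 2376 CPM in WT, at 647, 434 and 956 CPM in the LysM-DKO group and at 109 and 306 CPM in ABCG1KO. The groups were ordered without overlap. It fell by 3.17 on the log2 scale in ABCG1KO against WT (SE 0.571, BH-adjusted p 0.0102 in edgeR), and in LysM-DKO the value was -1.46 (SE 0.454, adjusted p 0.354). Itgam, the alpha chain of complement receptor 3, was at 588, 924 and 526 CPM in WT, at 197, 411 and 695 CPM in the LysM-DKO group and at 1588 and 1143 CPM in ABCG1KO, at a log2 fold change of 1.01 in ABCG1KO (SE 0.473, BH-adjusted p 0.188 in edgeR). Itgam shares 66.3% of its words with Gm49368, so its level is uncertain. The shared beta chain Itgb2 was at 2313 to 2749.5 CPM in WT, 998 to 1788 CPM in LysM-DKO and 1641 and 1841 CPM in ABCG1KO. Of the C1q-binding proteins, Cd93 was at 285 to 625 CPM, Calr at 806 to 1615 CPM and Lrp1, the partner of calreticulin, at 1033 to 2287 CPM over all libraries, with no call. Vsig4, the receptor CRIg of tissue macrophages, ranged from 3.56 CPM in LysM-DKO 1 to 57.7 CPM in WT 2.

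**Figure D4:**
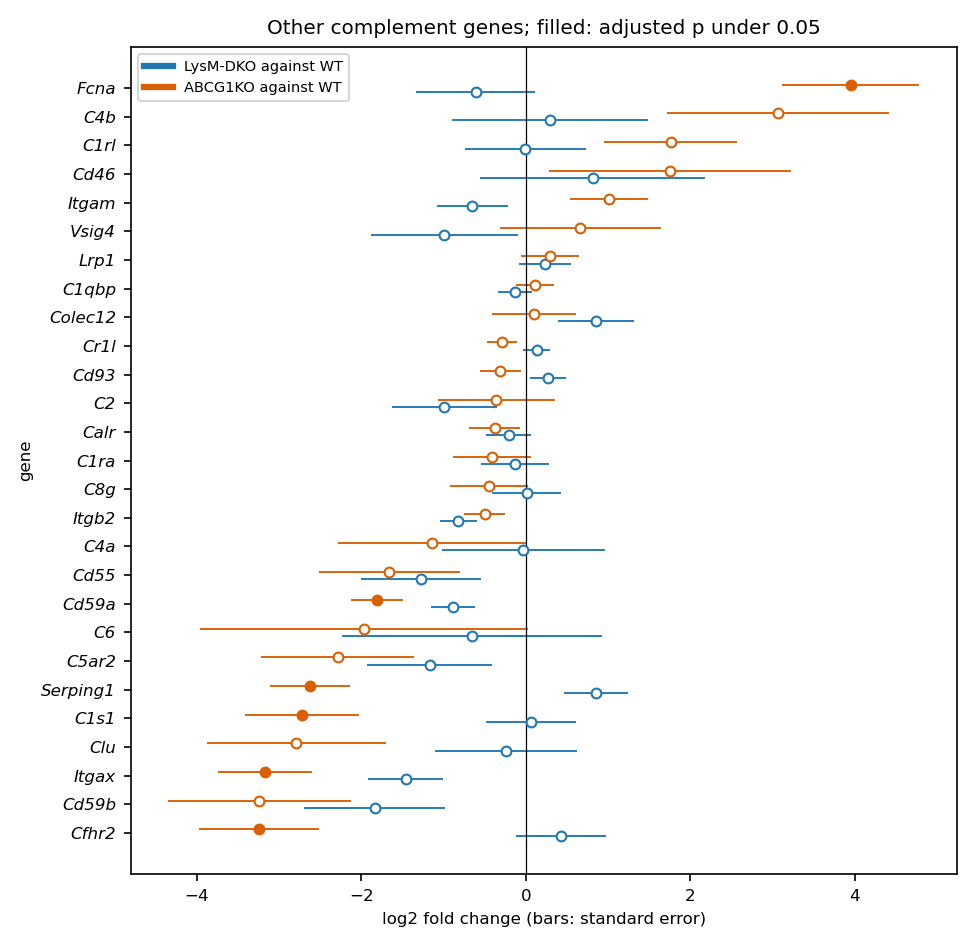
Log2 fold change with its standard error (horizontal axis) of 27 other complement genes (vertical axis) in LysM-DKO and ABCG1KO against WT. Filled points have an adjusted p under 0.05, which are Fcna (higher) and Cd59a, Serping1, C1s1, Itgax and Cfhr2 (lower), all in ABCG1KO.

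Other transcripts moved with the complement genes in ABCG1KO, and their part in these results was not tested. Of 20 tested acute-phase and inflammatory genes, 9 were called higher and 0 lower, beside the 7.21% and 8.83% of all genes that hold for each list here, among them Sod2 (1.95), Hp (8.13) and Nfkbia (2.02, all log2 fold changes). Their median log2 fold change was 1.98, and 15 of the 20 were above 0. The summed level of the list was 345 to 582 CPM in WT, 329 to 474 CPM in LysM-DKO and 12049 and 3831 CPM in ABCG1KO. Most of the ABCG1KO sum was 1 gene, Saa3, at 9951 and 2970.5 CPM. Of 24 interferon response genes, 0 were called higher and 2 lower (Oasl2 and Rsad2). Of 8 monocyte markers, 4 (Ly6c2, Ccr2, Treml4 and Nr4a1) were called higher (summed level 3.88 to 16.3 CPM in WT, 5.81 to 30.5 CPM in LysM-DKO, 214 and 65.1 CPM in ABCG1KO), and of 10 resident peritoneal macrophage markers, 3 (Timd4, Prg4 and Alox15) (67.7 to 463 CPM in WT, 42.7 to 252 CPM in LysM-DKO, 2154 and 1328 CPM in ABCG1KO). Of the hepatocyte markers, Alb had at most 1 count in any library and Fgb, Apob and Serpina1a had none, while Ttr was at 0 in WT and LysM-DKO and at 11.4 and 7.12 CPM in ABCG1KO, where it was called higher. Fibroblast markers summed to 762 to 918 CPM in WT, 686 to 1683 CPM in LysM-DKO and 161 and 1190 CPM in ABCG1KO, and mesothelial markers to 9.16 to 47.2, 6.20 to 88.8, and 8.37 and 34.7 CPM. Of the 8 fibroblast markers, 7 had a log2 fold change below 0 in ABCG1KO against WT (median -0.82), as did Serping1 and C1s1, and 1, Lum (-3.59), was called lower. Dcn was at -1.66, and Col1a1 and Col1a2 made up 549 and 492 CPM of the sum in ABCG1KO 2. Mast cell markers summed to at most 5.36 CPM in WT and LysM-DKO and to 52.8 and 9.08 CPM in ABCG1KO. All 5 tested had a log2 fold change above 0 in ABCG1KO against WT (median 4.12), and 1, Kit, was called higher. In LysM-DKO against ABCG1KO all 5 were called lower, beside 5.64% of all genes. Dendritic cell markers summed to at most 8.64 CPM in WT and LysM-DKO and to 18.2 and 17.5 CPM in ABCG1KO, where 1 of 5 tested, Siglech, was called higher. B cell markers summed to 7.47, 33.6 and 3.00 CPM in WT, 0.0727 to 1.61 CPM in LysM-DKO, and 17.8 and 2.97 CPM in ABCG1KO, with 0 called. T cell markers summed to at most 6.92 CPM and neutrophil markers to at most 24.6 CPM, with 0 called against WT.

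The genes most like each member across the 8 libraries were found by Pearson correlation of log2 CPM among 8510 genes, as a description. C1qa was closest to Fli1 (r 0.978) and Osbp (0.975), and C1qb to Asb1 (0.953) and its neighbour C1qc (0.922). C1qc was closest to Qk (0.961) and Icmt (0.959), and C3 to Ap2a2 (0.956) and Ctsc (0.950). Cfb was closest to Tmem119 (0.992) and Marco (0.991), and Cfp to Gsr (0.971) and Slfn2 (0.967). C3ar1 was closest to Zc3h12d (0.984) and Senp7 (0.981), and C5ar1 to Zbtb7b (0.940) and Mmp27 (0.934). Marco, a scavenger receptor gene, was at 3.04 CPM or less in WT, at 0 to 19.8 CPM in LysM-DKO with the highest value in LysM-DKO 3, as for Cfb, and at 1307 and 620.3 CPM in ABCG1KO. Over the 6 WT and LysM-DKO libraries alone, the 3 C1q chains had pairwise r of 0.94 to 0.98, and Cfb with C1qa had 0.11.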

How the data were processed

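RNA-seq gene counts of 8 libraries were used. The deposited values are whole-number counts per gene symbol made by the authors; per the submitters' processing notes the tools were STAR 2.7.9a, TopHat, HTSeq 0.11.2, DESeq2 1.30.1 and limma with build mm10, with no role or order. The annotation and strand setting are not given in the sources used here. The 5 lines that name no gene were left out of library sizes: reads outside genes made up 4.26% to 13.8%, reads at several loci 2.65% to 6.93%. Counts were fitted in edgeR 4.0.16 (R 4.3.3) with filterByExpr, TMM factors, 1 coefficient per group over all 8 libraries and glmQLFit with a robust prior, followed by glmQLFTest and Benjamini-Hochberg adjustment over 13821 genes. DESeq2 1.42.0 was an alternative. The fit was tested on simulated data. A count of 3, the floor, is 0.0716 to 0.101 CPM; it covers counting error only. Exact permutation tests compared the C1q ratio. Gene positions and lengths come from GENCODE M21 (GRCm38), and promoters from RefSeq.

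The genes and lists were chosen with earlier results of these data known. The rule named the 8 genes, every other complement gene called in a comparison and the 5 uncalled ones of highest mean CPM. Other complement genes given with values (C2, C4b, C5ar2, C8g, Cr1l and Vsig4) were chosen after their values were seen. Values of 1 listed complement gene are not reported here.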

Additional observations from a re-analysis of the deposited data

Results flagged for a closer look

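Reads outside the gene counts were more frequent in both ABCG1KO libraries than in the controls. Reads that fell in no annotated gene made up 13.8% in ABCG1KO 1 and 10.2% in ABCG1KO 2, above the highest of the other 6 libraries (6.07%). Reads placed at several loci made up 6.93% and 6.74%, above 3.01% in the other libraries.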

How the results depend on the processing

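Among the 8 genes, the log2 fold change took the other sign in LysM-DKO against WT for C3 (-0.26 without WT 3, -0.15 without LysM-DKO 2; highest 0.66) and Cfb (-0.05 without LysM-DKO 3; highest 1.32). In LysM-DKO against ABCG1KO it did so for C1qc (0.18 without LysM-DKO 3, 0.11 without ABCG1KO 2; lowest -0.31 with 1 library left out). Of the other genes named, in LysM-DKO against WT, C1rb was at 0.07 and C1s2 at 0.00 by library size only, and 0.28 and 0.20 without WT 2, with lowest values of -0.47 and -0.46 when 1 library was left out. There C1rb was at 0.13 without LysM-DKO 1, Calr at 0.03 without WT 1 (lowest -0.44), C1s1 at -0.35 without WT 3 and -0.32 without LysM-DKO 2 (highest 0.40), Cfhr2 at -0.14 without LysM-DKO 2 (highest 0.76), and Lrp1 at -0.23 after correction for GC content and length. Without ABCG1KO 2, Lrp1 was at -0.03 in ABCG1KO against WT (highest 0.73 without WT 3) and at 0.26 in LysM-DKO against ABCG1KO (lowest -0.34). Calr was at -0.02 in the latter without LysM-DKO 3 (highest 0.30). The cause was not tested.

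In LysM-DKO against WT, 5 genes were called: 295 with DESeq2, 8 fitting only both groups, 3 after the GC and length correction, 3 with no robust prior, and 0 to 6 with 1 library left out. The GC and prior alternatives were chosen after seeing the data. DESeq2 called 1 of the 8 genes there and 5 in ABCG1KO against WT. In ABCG1KO against WT, 2216 genes were called, and 853 to 1848 with 1 library left out, the lowest without ABCG1KO 1. Calls were 996 higher and 1220 lower, but 2074 higher and 856 lower by library size only and 1530 and 1136 after the GC and length correction. In LysM-DKO against ABCG1KO, 1853 genes were called (1073 higher, 780 lower), 2982 with DESeq2, 948 fitting only both groups, and 561 to 1960 with 1 library left out. The split was 877 and 1017 by library size only and 990 and 1242 after the GC and length correction. The 8 genes gave 0 to 2 calls there with 1 library left out.

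Replicate numbers are not said to pair libraries, and same-numbered WT and LysM-DKO libraries had deviations correlated at 0.03, 0.49 and -0.05. With a replicate block, 0, 1456 and 1024 genes were called in LysM-DKO against WT, ABCG1KO against WT and LysM-DKO against ABCG1KO. C1qc was at 0.11 in the last of these with the block. In ABCG1KO against WT the block gave 2 calls higher and 1 lower among the 8 genes: C5ar1 was called (-1.35, BH-adjusted p 0.0301 in edgeR) and Cfp was not (1.09, adjusted p 0.0804).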
